A study of Rattus norvegicus with 48 samples.

Results

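Subcutaneous adipose tissue (SAT), the fat under the skin, was compared between late and early active phase in sedentary rats. The comparison holds 12 of the 48 libraries of the series, 6 of late active phase controls (late control) and 6 of early active phase controls (early control), taken by their labelled tissue, activity and phase. All were adolescent male rats, and tissue was taken on postnatal day 61. Early controls belonged to zeitgeber time 13 and late controls to zeitgeber time 23, where zeitgeber time counts hours from lights on and the active phase of a rat is the dark phase. Both groups are labelled as controls of the exercised rats, and the tissue was collected 24 h after the last session of the exercised rats of the study. The labels name no strain, genotype or drug. Each library came from a separate rat, and the phases were sampled in different rats, so the time of collection and any difference in handling between the groups cannot be told apart. In whole tissue, a change in how many cells of a type are present and a change in RNA per cell cannot be told apart either.

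Fat cells run a circadian clock of their own. The activator BMAL1, paired with CLOCK or NPAS2, switches on the genes of its repressors, the PER, CRY and REV-ERB proteins, and these in turn shut the activators down, so that activator and repressor transcripts peak at opposite times of the day. Output factors such as DBP carry this rhythm to other genes, and in fat the storage and release of lipid follow the time of day. The deposited table names genes by Ensembl ID without symbols, and 0 of its 23481 IDs matched the reference table of rat gene names, which held 0 Ensembl IDs. Clock genes, lipid genes and cell type markers were therefore not analysed here by name, the labelled tissue was not set against its markers, and the results are given as groups of genes and as 4 IDs.

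The libraries held between 13211806 and 16909857 estimated counts, and between 15627 and 16587 genes had at least 1 count in a library. The median Spearman correlation of a library with the other 11 lay between 0.967 and 0.981. No library was a copy of another of its group, since all 30 pairs differed by more than sampling noise (chi-square statistic divided by its degrees of freedom between 11.3 and 134.8). Early control replicates 5 and 6 carried a second RNA profile, described further on, and late control replicate 6 carried it at a lower level. The main counts and levels are given first with all 12 libraries and then without them.

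Of 13763 genes tested, 1671 (12.1%) differed between late and early control, with 883 (6.42%) higher late and 788 (5.73%) lower late (edgeR's quasi-likelihood test with Benjamini-Hochberg adjustment, adjusted p under 0.05; such genes are called below). With all 12 libraries most called changes were small. Their median size was 0.48 on the log2 scale, with quartiles of 0.33 and 0.73, and 893 of them measured 0.5 or less. A change of 2-fold or more was fitted for 214 called genes, 114 higher and 100 lower late. For 4-fold or more the numbers were 14 higher and 22 lower, for 8-fold or more 4 and 6, and for 16-fold or more 1 and 3. Without early control replicates 5 and 6 the median size of a called change was 0.58. Of the 1130 genes then called, 443 measured 0.5 or less, and 111 higher and 105 lower changed 2-fold or more. Changes of 4-fold or more then numbered 21 higher and 22 lower, of 8-fold or more 7 and 6, and of 16-fold or more 5 and 3. Without late control replicate 6 as well, 301 of 979 called genes measured 0.5 or less. The numbers were then 111 and 103 at 2-fold, 24 and 20 at 4-fold, 9 and 7 at 8-fold, and 4 and 3 at 16-fold. Rises of 4-fold or more were thus more numerous without these libraries, while falls of that size numbered nearly the same. Which genes were tested was decided anew for each set of libraries. Of the genes called without early control replicates 5 and 6, 8 had not been tested with all 12 libraries. The part of the changed set of tested genes in these numbers was not tested.

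**Figure D1:**
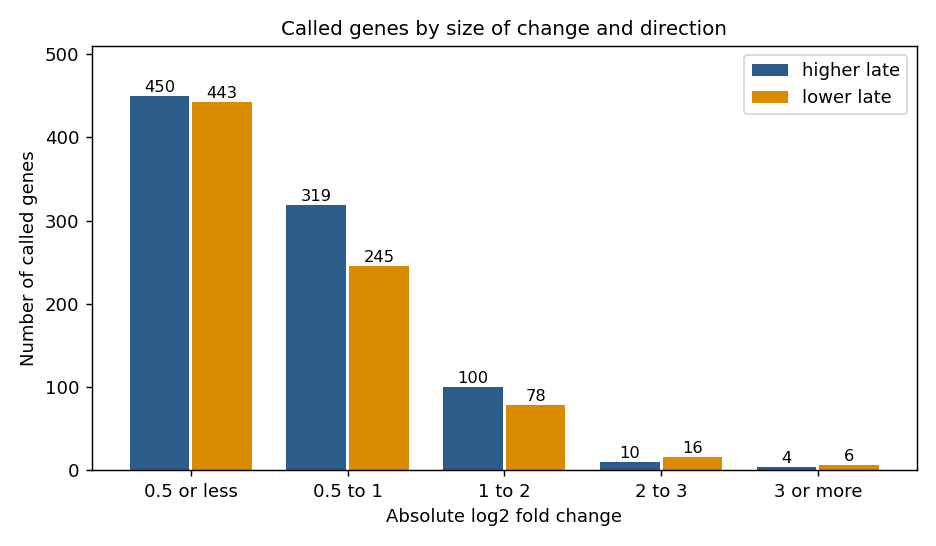
Number of called genes (vertical axis) by absolute log2 fold change (horizontal axis), with blue bars for genes higher late and orange bars for genes lower late. Of the called genes, 450 higher and 443 lower lie at 0.5 or less, while 4 and 6 lie at 3 or more.

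The groups did not overlap in 909 genes (6.6% of those tested), meaning that the lowest library of the higher group exceeded the highest library of the other, and 870 of these were among the called genes, 481 higher and 389 lower. For 68 called genes the nearest libraries of the groups were at least 1.5-fold apart, 29 of them higher late and 39 lower. A gap of 2-fold or more was found in 14 higher and 21 lower genes, and one of 4-fold or more in 2 and 6. Fewer libraries overlap less readily: without early control replicates 5 and 6 the groups were apart in 1398 genes (10% of those tested), and without late control replicate 6 as well in 1651 (11.9%). Gaps of 1.5-fold or more were then found in 98 and in 107 called genes. Those of 4-fold or more were found in 3 higher and 7 lower called genes, and in 4 and 7. Wide gaps were few in either direction in all 3 sets of libraries.

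The share of called genes rose with abundance. Genes were divided into quartiles by their mean CPM (counts scaled to a common total by the TMM library size). In the lowest quartile, up to 6.9 CPM, 5.96% were called, in the next 10.8%, in the next 14.7%, and in the highest, from 54.4 CPM on, 17.1%. The size of the called changes went the opposite way, with a median of 0.92 on the log2 scale in the lowest quartile and 0.40 in the highest. Of the called genes in the lowest quartile 89 changed 2-fold or more, and of those in the highest 40. Without early control replicates 5 and 6 the shares were 4.04% in the lowest quartile and 11.6% in the highest, and without late control replicate 6 as well 3.75% and 9.59%. The median sizes in these quartiles were 1.12 and 0.51 in the first of these sets, and 1.15 and 0.56 in the second. The part of counting noise in this trend was not tested.

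Among called genes that changed 2-fold or more, those lower late had a median of 18.3 CPM in early control, and 22 of the 100 exceeded 100 CPM there. Those higher late had a median of 10.1 CPM in late control, and 12 of the 114 exceeded 100 CPM. At 4-fold or more the medians stood in the opposite order, at 13.1 CPM for the 22 falls and 15.9 CPM for the 14 rises, although 6 of the falls started above 100 CPM and 0 of the rises ended above it. The level of large falls and large rises therefore had no single order with all 12 libraries. Without early control replicates 5 and 6 the medians at 2-fold or more were 22.5 CPM for falls and 11 CPM for rises, and at 4-fold or more 31.8 and 4.55 CPM. Without late control replicate 6 as well they were 23.8 and 12.5 CPM, and 31.6 and 4.56 CPM. The difference between rises and falls in these levels was not tested.

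As a share of the TMM-scaled library, the genes called higher made up 5.44% ± 0.247 of the early libraries and 7.74% ± 0.278 of the late ones (SD, n = 6). Those called lower made up 6.84% ± 0.433 early and 4.59% ± 0.409 late (SD, n = 6). The groups overlapped in neither sum, with the genes called lower at 6.19 to 7.36% early and 4.08 to 5.28% late. Without early control replicates 5 and 6, the genes then called higher held 3.44% ± 0.129 early (SD, n = 4) and 5.19% ± 0.187 late (SD, n = 6). Those then called lower held 6.12% ± 0.410 early (SD, n = 4) and 3.84% ± 0.411 late (SD, n = 6). Without late control replicate 6 as well the sums were 2.80% early and 4.43% late for the higher genes, and 4.43% and 2.62% for the lower. The genes were picked by this same contrast, so the sums describe how much of the message pool they held and carry no test.

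The 2 largest rises and the 2 largest falls were taken among genes with at least 5 CPM in a group, called with and without early control replicates 5 and 6, and with groups that did not overlap. ENSRNOG00000013408 was low early and far higher late. It stood at 0.73 CPM in the lowest, 1.79 CPM at the median and 3.56 CPM in the highest early library, against 47.5, 64.1 and 73.1 CPM in the late ones. The lowest late library was 13.3-fold above the highest early one. The means were 2.06 ± 1.01 and 62.2 ± 8.88 CPM (SD, n = 6), a 30.2-fold rise (log2 fold change 4.91 ± 0.25 SE, adjusted p = 8.66e-08, edgeR). Its late values varied little, with a coefficient of variation of 14.3% against 48.9% early. The early values rest on 11 to 53 counts a library and the late ones on 762 to 1209. In early control replicates 1 to 4 the SD was 0.514 CPM around a mean of 1.48 CPM. The part of counting noise in the early spread was not tested.

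ENSRNOG00000014448 followed with a 15.8-fold rise to almost the same late level. Its lowest, median and highest values were 1.61, 3.72 and 6.91 CPM early and 55.4, 60.3 and 67.9 CPM late. The groups were 8.02-fold apart at their nearest libraries, and the late rats differed little among themselves, with a coefficient of variation of 7.87%. The means were 3.83 ± 1.77 and 60.4 ± 4.75 CPM (SD, n = 6; log2 fold change 3.98 ± 0.23 SE, adjusted p = 4.72e-07, edgeR).

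ENSRNOG00000042717 fell furthest, to a level near the limit of detection. It stood at 5.4, 9.02 and 14.9 CPM in the lowest, median and highest early library and at 0.0666, 0.398 and 0.544 CPM in the late ones. The late values rest on 1 to 9 counts a library, where 3 counts of the library total correspond to between 0.177 and 0.227 CPM, so the size of the fall is less precise than its direction. The means were 10.2 ± 3.77 and 0.334 ± 0.195 CPM (SD, n = 6; log2 fold change -4.91 ± 0.38 SE, adjusted p = 5.13e-06, edgeR), and the groups were 9.92-fold apart at their nearest libraries.

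ENSRNOG00000009329 fell 19.5-fold from a much higher level. Early libraries ranged from 52 to 120.1 CPM with a median of 72.6 CPM, and late libraries from 2.4 to 6.77 CPM with a median of 3.8 CPM. Every early library was at least 7.68-fold above every late one. The means were 83 ± 27.1 and 4.25 ± 1.68 CPM (SD, n = 6; log2 fold change -4.30 ± 0.28 SE, adjusted p = 9.47e-07, edgeR).

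**Figure D2:**
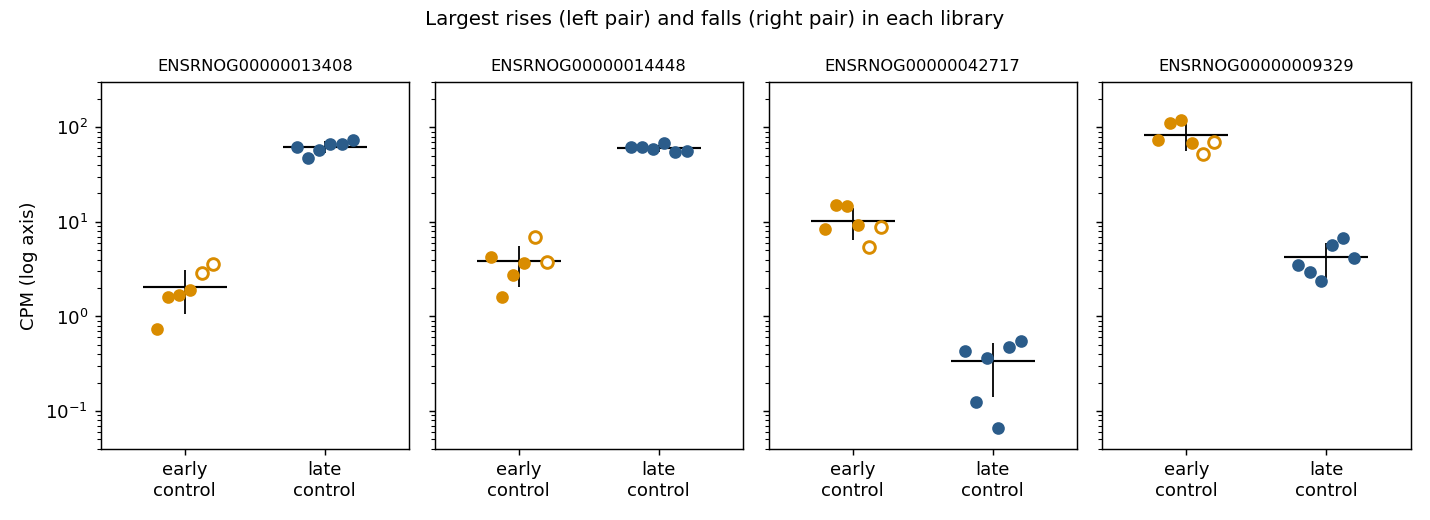
CPM on a log axis in each of the 12 libraries for both rises and both falls given by ID, with early controls in orange and late controls in blue. Open circles are early control replicates 5 and 6, and black lines are the group mean and its SD; in no panel do the groups overlap.

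Early control replicates 5 and 6 lay on average nearer to the late level than the other early controls for each of these 4 genes. ENSRNOG00000013408 averaged 3.23 CPM in that pair and 1.48 CPM in early control replicates 1 to 4. For ENSRNOG00000014448 the means were 5.33 and 3.07 CPM, for ENSRNOG00000042717 7.13 and 11.8 CPM, and for ENSRNOG00000009329 61.5 and 93.7 CPM. Early control replicate 5 lay outside the range of replicates 1 to 4, on the late side, for all 4 genes. Replicate 6 lay within that range for ENSRNOG00000014448 (3.76 CPM), ENSRNOG00000042717 (8.86 CPM) and ENSRNOG00000009329 (70.9 CPM). Without the pair all 4 changes were fitted as larger, with folds of the means of 42.1, 19.6, 35.2 and 22.1 in the same order. The log2 fold changes were then 5.38 ± 0.21, 4.29 ± 0.20, -5.11 ± 0.35 and -4.49 ± 0.26 (SE), with adjusted p of 6.70e-08, 3.14e-07, 1.26e-05 and 3.33e-06 (edgeR). Without late control replicate 6 as well they were 5.33, 4.32, -5.31 and -4.48, and the largest adjusted p was 4.15e-05 (edgeR).

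The same held for most of the strongest changes. Ranked by the same rule, the 8 largest rises went from means of 0.695 to 7.73 CPM early up to means of 5.26 to 62.2 CPM late, and their log2 fold changes reached from 4.91 down to 2.27. The 8 largest falls started higher, at means of 8.59 to 250.6 CPM early, and ended at 0.334 to 34.3 CPM late, with log2 fold changes from -4.91 to -2.84. Of these falls 4 started above 100 CPM, while 0 of the rises ended there. The gene with the smallest p of the 16 was the sixth of the falls, at 192.3 CPM early and 23 CPM late on average (log2 fold change -3.06 ± 0.10 SE, adjusted p = 7.66e-10, edgeR). Its early libraries lay between 170.5 and 218.1 CPM and its late libraries between 19.6 and 27.2 CPM, so both groups were tight. In 7 of the 8 rises and 8 of the 8 falls, the mean of early control replicates 5 and 6 lay on the late side of the mean of replicates 1 to 4. These genes had to be called also without the pair, which favours that position. With no such condition the counts were 25 of the 36 called genes that changed 4-fold or more, 115 of the 214 that changed 2-fold or more, 774 of 1671 called genes and 7826 of 13763 tested.

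Early control replicates 5 and 6 shared a set of genes that the other libraries held at low levels. Only the 13763 genes tested were searched, and genes with very low counts in most libraries were not among them. Genes found almost only in this pair would therefore be missing from the counts below. In both libraries 120 of the tested genes lay over 4-fold above the median of the other 10 libraries and at 1 CPM or more. Of these, 20 were not over 4-fold above the median of early control replicates 1 to 4 in both libraries and were set aside. Among the 20, 12 were called lower late, against 788 (5.73%) of all 13763 genes tested. The way the 20 were picked itself favours a lower late level. The other 100 genes are the second profile; this split was made after the values were seen. Both libraries were chosen by their values, so the levels and fold changes that follow are a description, with no test.

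Together the 100 genes held 47911 CPM in early control replicate 5 and 26148 CPM in replicate 6, against 309.4 to 394 CPM in the 9 libraries that did not carry the profile. These levels were 138.7-fold and 75.7-fold the median of the 9. Late control replicate 6 held 4121 CPM, or 11.9-fold. This was 4.79% and 2.61% of the TMM-scaled library in the early pair and 0.412% in late control replicate 6.

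**Figure D3:**
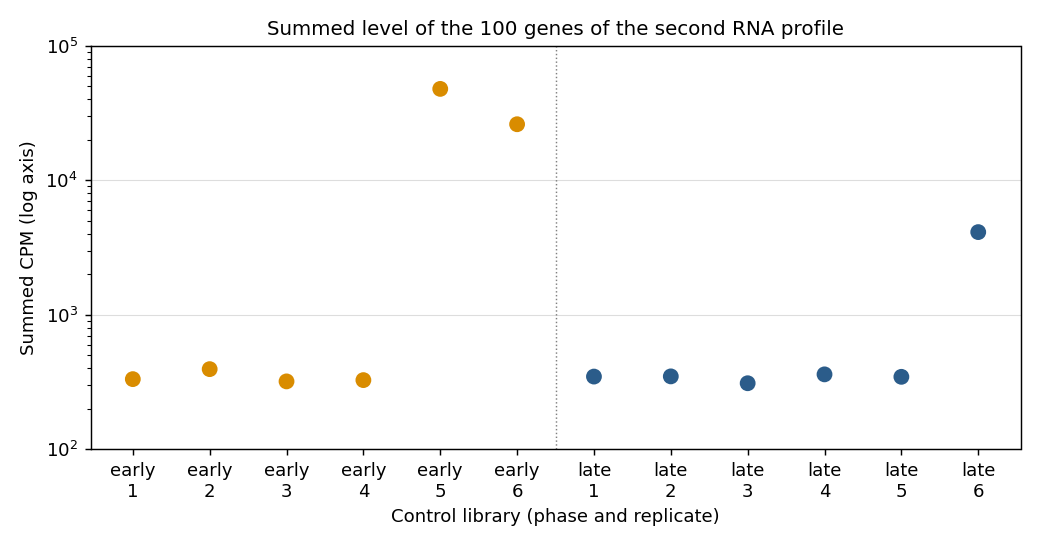
Summed CPM of the 100 genes of the second profile on a log axis, for each early control (orange) and late control (blue) library by replicate. Early control replicates 5 and 6 lie at 47911 and 26148 CPM and late control replicate 6 at 4121 CPM, while the other 9 lie between 309.4 and 394 CPM.

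A single gene made up most of the profile. It stood at 38551 CPM in early control replicate 5, 19712 CPM in replicate 6 and 2770 CPM in late control replicate 6, and at 5.57 to 53.1 CPM in the other 9. It held 80.5% and 75.4% of the profile in the early pair. The next most abundant gene stood at 1625 and 1311 CPM in the early pair, at 244.2 CPM in late control replicate 6 and at no more than 1.98 CPM elsewhere. The fourth stood at 1224, 666.6 and 135.9 CPM in the 3 libraries and at a measurable 41.4 to 51.4 CPM in the others. In all, 12 of the genes averaged at least 100 CPM in the early pair, and 45 had a median under 1 CPM in the 9 libraries. The IDs of these genes carry no symbols here, so no tissue or cell type is given to the profile.

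The profile was strongest in early control replicate 5 and weakest of the 3 in late control replicate 6. Replicate 5 was above replicate 6 in 93 of the 100 genes, with a median ratio of 1.42. Late control replicate 6 was the highest late library for 83 of them, over 2-fold above the median of the other late controls for 70 and over 4-fold for 28. Its excess over the 9 libraries had a median of 16.6% of the mean excess in the early pair, with quartiles of 11.4% and 24.5%.

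The fitted phase effect of the profile's genes turned with the libraries included. With all 12 libraries 98 of the 100 genes had a negative log2 fold change, with a median of -1.57, a direction set by choosing genes that were high in early control replicates 5 and 6. Without the pair 87 of the 100 had a positive log2 fold change, with a median of 0.52. Without late control replicate 6 too, the median over the 92 genes still tested was 0.11, with 36 negative values. Setting aside the 20 genes itself favours positive values in both fits without the pair. The most abundant gene of the profile had log2 fold changes of -4.35 ± 2.32, 4.52 ± 1.96 and -0.28 ± 0.60 (SE) in these 3 fits.

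Without early control replicates 5 and 6, 1130 of 13941 genes (8.11%) were called, 560 (4.02%) higher and 570 (4.09%) lower late. They included 986 of the 1671 first calls, which was 59% of the first list and 87.3% of the second. All 1671 kept their sign, as did 12368 of all 13763 genes tested in both fits. The 986 shared calls had a median absolute log2 fold change of 0.58 with the pair and 0.59 without it, and 35 of the 36 called changes of 4-fold or more were among them. Calls lost without the pair were small, with a median of 0.35 and then 0.32. Without the pair 682 of the 685 were at an unadjusted p under 0.05 (edgeR), against 3364 of all 13763 genes. The 685 were called in a fit that shares most of its libraries with this one, which favours a small p. In 517 of these 685 genes the mean of the pair lay on the side of the other early controls that faced away from the late libraries, against 380 of the 986 shared calls and 5937 of all 13763 genes. The lost genes were picked by losing their call without the pair, which itself favours this position. The part of the smaller number of libraries in the lost calls was not tested.

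**Figure D4:**
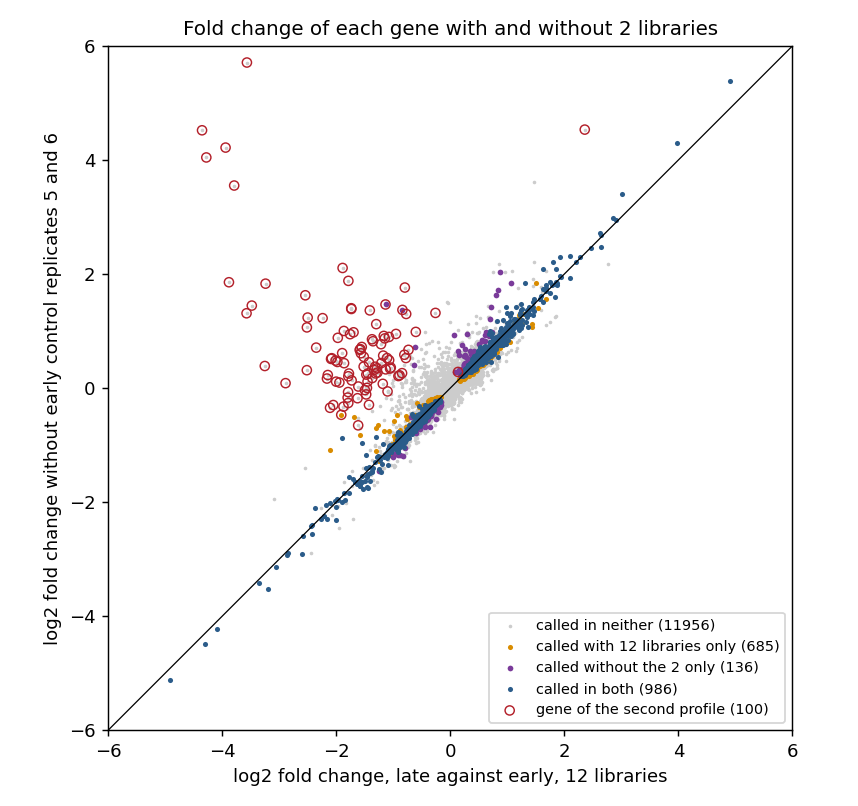
Log2 fold change of each gene, late against early, with all 12 libraries (horizontal axis) and without early control replicates 5 and 6 (vertical axis); the black line marks equal values. Genes called in both fits (986, blue) follow the line, while the 100 genes of the second profile (red circles) lie mostly above it.

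Leaving out late control replicate 6 as well gave 979 calls of 13882 genes (7.05%), 521 higher and 458 lower late, and 830 genes were called in all 3 fits, 415 in each direction. Removing the genes of the profile from the table in place of libraries gave 1692 calls, close to the first count. The common biological coefficient of variation was 21% with all 12 libraries, 18.8% without the early pair and 18.4% without the 3 libraries. The spread between early controls, as the median SD of log2 CPM over genes, was 0.188 with the pair and 0.166 without it, against 0.205 between late controls. The number of genes with an SD over 1 fell from 367 to 189 in early controls without the pair, and stood at 269 in late controls. Without late control replicate 6 the median SD between late controls was 0.210, and 256 genes had an SD over 1. The SDs without these libraries rest on fewer rats.

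The count of calls varied with the libraries in the fit. With all 24 SAT libraries, exercised rats included, 463 genes were called, of which 458 were among the 1671. That fit also changed the scaling and the number of genes tested (14372). Leaving out early control replicate 5 or 6 moved the count in opposite directions: without replicate 5 alone it was 1723, with 902 higher and 821 lower, and without replicate 6 alone 1044, with 537 higher and 507 lower. The number lower late was 509 without late control replicate 1 and 513 without late control replicate 2. All 1671 genes kept their sign in each of these fits. Each fit shares most or all of the libraries behind the first calls, which favours the same sign.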

How the data were processed

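Polyadenylated RNA of RNA integrity number over 9 gave single-end reads of 50 nt, per the labels. The submitters' processing notes list Salmon 1.4.0 and build rn6; which annotation was used is not given in the sources used here. The authors deposited estimated counts per Ensembl gene ID, as whole numbers. Columns were matched to samples by the library names in the labels.

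The 12 libraries were fitted with edgeR 4.0.16 in R 4.3.3 (filterByExpr, TMM, quasi-likelihood, Benjamini-Hochberg over all genes tested). The filter kept 99.8% of the counts. The standard error is the log2 fold change over the square root of F. Log2 CPM used a prior count of 2. Floors cover counting error only. The fit was tested on simulated counts in which no library carried the second profile, so that test does not cover this feature. Alternatives used limma 3.58.1 and DESeq2 1.42.0.

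The libraries, gene lists and rule for named genes were chosen with earlier results of these data known. The 42 gene lists, the symbol-based naming and the promoter motifs were not analysed here, since no ID matched a symbol; the rule's provision for that case, 2 rises and 2 falls, was used. The most abundant genes of the second profile were described without their IDs.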

Additional observations from a re-analysis of the deposited data

Results flagged for a closer look

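In 11 measures (4 gene levels and 7 library measures), the highest and lowest library of each group of 6 were compared with the rest of their group, which made 22 tests; chance alone marks about 1 in 20 groups. The test marked late control replicate 6 in the summed level of the second profile, at 4121 CPM against 360.2 CPM in the next highest late control. Early control replicates 5 and 6 were not marked in the same sum because they lie high together. The 4 named genes, the totals and the numbers of detected genes gave no such library in either group.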

How the results depend on the processing

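The 4 named genes kept their direction and stayed called under each of the 22 alternatives, with log2 fold changes of 4.74 to 5.38 (ENSRNOG00000013408), 3.82 to 4.32 (ENSRNOG00000014448), -5.31 to -4.70 (ENSRNOG00000042717) and -4.49 to -4.17 (ENSRNOG00000009329), and a largest adjusted p of 0.00074. These genes were chosen as the largest changes called both with all libraries and without early control replicates 5 and 6, so the choice itself favours this outcome. The number of called genes varied more. Against 1671 (883 higher, 788 lower) it was 463 (220 and 243) when all 4 SAT groups were fitted together, and 979 (521 and 458) without the 3 libraries with the second profile. Without early control replicates 5 and 6 the number higher late was 560, and limma voom with sample quality weights called 2503, of which 1186 lower late. Leaving out each library in turn gave 1044 to 1815 calls, 537 to 902 higher and 507 to 924 lower, and both lowest and highest come from single libraries, early control replicate 6 and late control replicate 3 for the total. With the replicate number as a block (replicate block) 1051 genes were called, 555 higher and 496 lower, but the numbers name different rats. Deviations of same-numbered rats correlated at -0.135 to 0.303 across genes, over 0.1 in 1 of 6 pairs. That pair was replicate 6, whose early and late libraries both carried the second profile, and the part of the profile in its correlation was not tested. In all, 1 early and 2 late libraries correlated best with their own number. The cause of these differences in counts was not tested. The Wald test of DESeq2, its size factors in edgeR, a filter of 1 count only, removal of the second profile's genes and its level as a covariate gave between 1370 and 2349 calls. Leaving out the 3 libraries, removing the genes and the covariate were chosen after seeing the data.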
